A study of Mus musculus with 4 samples.

Results

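The alpha and beta defensin genes were read on 4 one-colour Agilent mouse arrays. Members were all non-control probes whose gene name in the scanner files begins with Defa, Defb or Defcr; no name began with Defcr. The rule took 77 of 39429 probes and 62 of 30175 gene names: 25 probes of 18 alpha-defensin names and 52 probes of 44 beta-defensin names. The name rule itself uses no measured value. The samples were wild type C57/BL6 mouse whole intestine, isolated crypt, y-organoid and o-organoid, with 1 array each, and they carried no treatment in the labels. Both organoids are labelled as cultures with crypts and villi, with the meaning of y and o not given in the sources used here. Cy3-labelled RNA was made from 40 ng of total RNA for the o-organoid and 20 ng for each other sample. The same holds for the animals' age and for how many animals or cultures were pooled.

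Defensins are small cationic peptides with paired cysteines that kill microbes by damaging their membranes. In the mouse small intestine the alpha-defensins, called cryptdins, are made by Paneth cells at the base of the crypt. They are stored in granules as prodefensins and are cut to the active form by matrilysin, the product of Mmp7. The cryptdin-related sequence genes (Defa-rs) encode relatives with a similar precursor and a different mature peptide. The genes form a cluster of near-identical copies, and the set of copies differs between inbred strains. Beta-defensins have another spacing of the cysteines and are made by many epithelia, with a large group of members known mainly from the epididymis and testis.

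The probes are 60 bases long, and relatives within the family share much of that sequence. The following alpha-defensin probes are shown because the largest differences involve some of them and because they form pairs of alike sequence. The printed pairs are not the closest of the family, since 2 probes of Defa1 were 98.1% identical over 53 bases. They are given 5′ to 3′ as in the scanner files, and capitals in the Defa-rs7 and Defa-rs12 probes mark bases that differ from the Defa-rs10 probe.
Defa-rs10 probe: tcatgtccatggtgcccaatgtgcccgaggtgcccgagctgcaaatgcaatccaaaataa
Defa-rs7 probe 2 of 2: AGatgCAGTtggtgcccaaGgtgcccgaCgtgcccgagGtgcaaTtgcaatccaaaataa
Defa-rs12 probe: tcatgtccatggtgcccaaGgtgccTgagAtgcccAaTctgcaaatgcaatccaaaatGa
Over the 60 bases, the Defa-rs7 probe has 10 mismatches to the Defa-rs10 probe and the Defa-rs12 probe has 6. Both carry the substitution T20G, counted from the first base of the Defa-rs10 probe.

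A second pair joins 2 cryptdins, Defa3 and Defa1. Capitals in the Defa1 probe mark the 4 mismatches within the 56 bases over which it overlaps the Defa3 probe.
Defa3 probe 2 of 3: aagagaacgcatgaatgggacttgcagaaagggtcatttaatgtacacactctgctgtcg
Defa1 probe 1 of 3: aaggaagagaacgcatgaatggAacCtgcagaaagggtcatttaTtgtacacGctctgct
The Defa3 probe lies at chr8:22427899-22427958 on the plus strand of mm9, and the files give no position for the Defa1 probe. For contrast, the Defa21 probe at chr8:22166019-22166078 (plus strand, mm9) lay well above background on all arrays, whereas the Defa4 probe, with no position in the files, did so on none.
Defa21 probe: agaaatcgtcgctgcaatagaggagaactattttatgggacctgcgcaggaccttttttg
Defa4 probe: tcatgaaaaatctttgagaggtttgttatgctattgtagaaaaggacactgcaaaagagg

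Of the 300 pairs of alpha-defensin probes, 16 were at least 80% identical over an overlap of 30 or more bases. These pairs took in 17 of the 25 probes. The files list more than 1 RefSeq transcript as a target for 12 alpha-defensin probes and for 0 beta-defensin probes. An alpha-defensin signal may thus hold transcripts of several copies, and gene names below stand for probe names. The 13 alpha-defensin probes that have a position and lay above background span chr8:22166019-22805612 in mm9. A further 9 alpha-defensin probes have no listed position, and 7 of them lay above background. Those of Defa-rs7, Defa-rs10 and Defa-rs12 are among the 7, and their accessions matched no RefSeq name, so the copies they read were not placed. Exons and untranslated regions of that build were not used here.

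Signals are given as the log2 of the processed intensity minus the 75th percentile of the same array, so that 0 is the level of that percentile and 1 unit is a 2-fold change. Its intensity was 386 for intestine, 472 for crypt, 282 for y-organoid and 644 for o-organoid. Between 51.9% and 58.7% of the 43020 non-control spots per array lay well above background. Probes spotted 10 times had a median SD of 0.049 to 0.076 between spots of an array, which gives a difference of 2 arrays a technical SD of 0.082 to 0.10. That SD covers spotting only, and for signals below -2 the median SD between spots of an array was higher, at 0.13 to 0.19. With 1 array per group there was no replicate check, and a difference describes these arrays. Every defensin probe was spotted once, and none was saturated or an outlier. The brightest member reached 56.4% of the scanner's limit, on the crypt array. A gene above background on both arrays counted as higher or lower when the arrays differed by 4-fold or more (2 on the log2 scale). Where 1 array was dim, only a bound was taken, from the lowest signal above background on that array. Medians over genes include such bounds.

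Alpha-defensin transcripts were measured in all 4 samples, and nearly all beta-defensins were at background. On each array 13 of 18 alpha-defensin names had a probe well above background. The beta-defensins above background numbered 3 of 44 for intestine, 1 for crypt, 3 for y-organoid and 4 for o-organoid. Over all gene names, 64.4% were above background on at least 1 array, against 72.2% of the alpha-defensins and 13.6% of the beta-defensins.

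For 9 of the 13 alpha-defensins the lowest of the 4 signals was that of the y-organoid. For Defa1, Defa23, Defa-rs10 and Defa-rs12 it was that of the o-organoid, although for the first 3 of these the order of the organoids changed under other settings, given below. In the y-organoid 10 of 13 alpha-defensins were 4-fold or more lower than in crypt and 0 were higher. Over all gene names above background on both of these arrays, 3.97% were lower and 4.03% higher. The alpha-defensin median difference was -3.56, beside 0.16 over all genes. In bulk RNA, fewer Paneth cells and less defensin RNA per cell cannot be told apart.

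**Figure D1:**
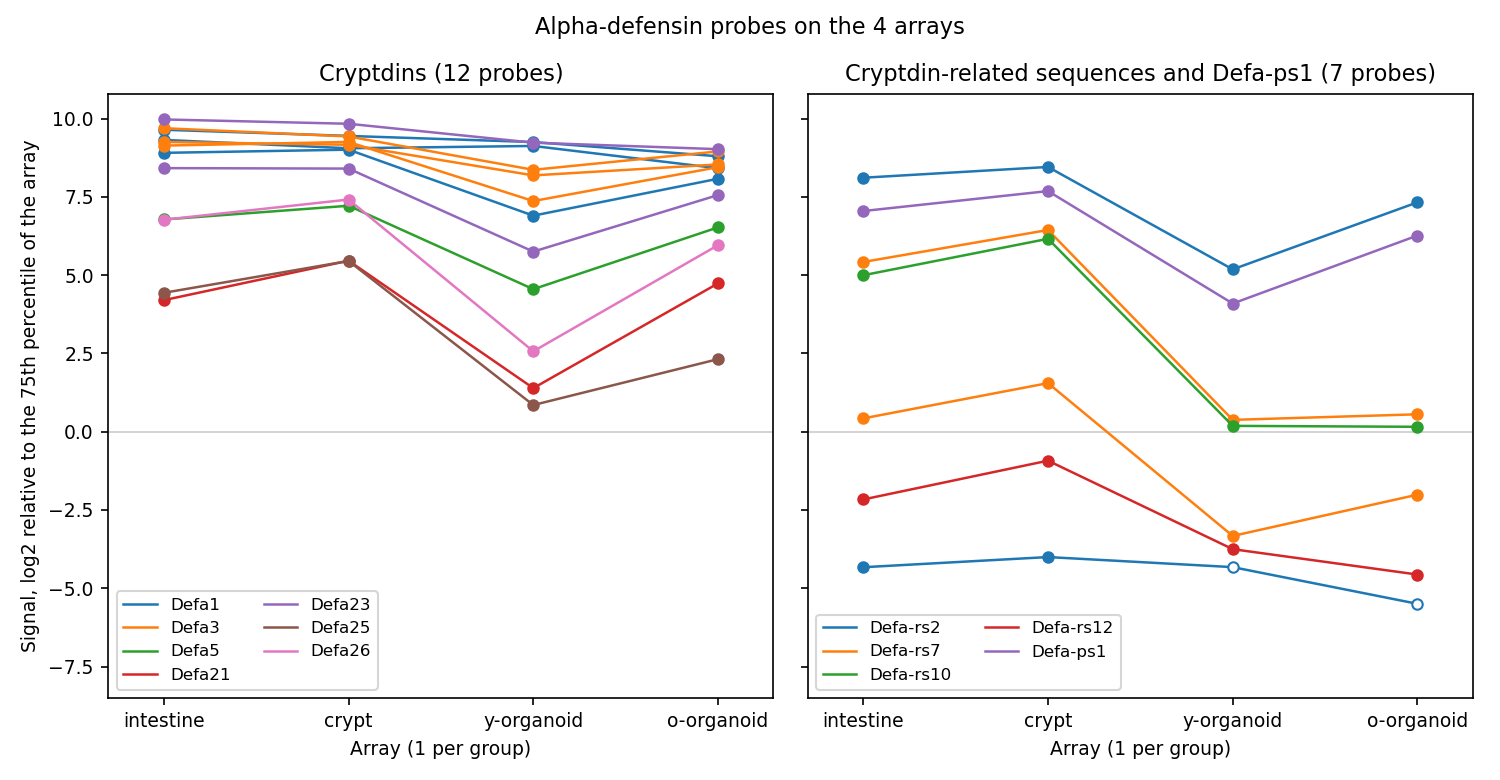
Signals of 19 of the 20 alpha-defensin probes above background on at least 1 array, 1 being left out (vertical axis, log2 relative to the 75th percentile of each array) on the intestine, crypt, y-organoid and o-organoid arrays (horizontal axis, 1 array per group), with cryptdins on the left and cryptdin-related sequences with Defa-ps1 on the right. Lines join the points of a probe, open circles mark a probe not well above background, and the brighter Defa-rs7 probe stands at 6.44 in crypt, 0.38 in y-organoid and 0.55 in o-organoid.

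Read by their brightest probes, 3 of the 7 cryptdins above background were within 4-fold of crypt in the y-organoid and 4 were lower. By single probes the 2 groups meet, since other probes of Defa1 and Defa23 gave -2.11 and -2.65, beside -2.66 for Defa5. Defa1, read by its brightest probe, had signals of 9.64 in intestine, 9.45 in crypt, 9.25 in y-organoid and 8.80 in o-organoid. The 4 values lay within 1 log2 unit of each other. Defa23 had signals of 9.97 in intestine, 9.83 in crypt, 9.23 in y-organoid and 9.02 in o-organoid. Defa3 had signals of 9.69 in intestine, 9.43 in crypt, 8.36 in y-organoid and 8.95 in o-organoid. These 3 were the alpha-defensins whose y-organoid signal on the brightest probe was within 4-fold of crypt. The differences were -0.20 for Defa1, -0.60 for Defa23 and -1.06 for Defa3.

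The other 4 cryptdins above background were low in the y-organoid. Defa5 had signals of 6.78 in intestine, 7.22 in crypt, 4.55 in y-organoid and 6.53 in o-organoid. The difference from crypt was -2.66 in the y-organoid, and the o-organoid was within 4-fold of crypt. Defa21 had signals of 4.20 in intestine, 5.46 in crypt, 1.39 in y-organoid and 4.74 in o-organoid. Defa26 had signals of 6.77 in intestine, 7.41 in crypt, 2.57 in y-organoid and 5.96 in o-organoid. Both were 4-fold or more below crypt in the y-organoid alone, by 16.8-fold for Defa21 and by 28.8-fold for Defa26. Defa25 differed from them, with signals of 4.43 in intestine, 5.45 in crypt, 0.85 in y-organoid and 2.32 in o-organoid. It was the single cryptdin that was 4-fold or more below crypt in both organoids, by 24.3-fold in the y-organoid and by 8.79-fold in the o-organoid.

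The cryptdin-related sequences were 4-fold or more lower than crypt in both organoids for 4 of the 5 members above background. Defa-rs7, read by its brighter probe, had signals of 5.42 in intestine, 6.44 in crypt, 0.38 in y-organoid and 0.55 in o-organoid. Defa-rs10 had signals of 5.0 in intestine, 6.16 in crypt, 0.19 in y-organoid and 0.16 in o-organoid. For both names the tissue arrays were high and the organoid arrays low, and the 2 organoid values differed by 0.18 for Defa-rs7 and by -0.03 for Defa-rs10 (o-organoid minus y-organoid). These were the largest differences of the family: the y-organoid was 66.9-fold below crypt for Defa-rs7 and 62.9-fold for Defa-rs10, and the o-organoid 59.2-fold and 64.2-fold. Their probes, printed above, share 50 of 60 bases, so that the 2 readings cannot be taken as independent. Whether the 2 probes read the same transcripts was not tested.

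Defa-rs12, whose probe has 6 mismatches to that of Defa-rs10, was dimmer throughout, with signals of -2.16 in intestine, -0.93 in crypt, -3.75 in y-organoid and -4.56 in o-organoid. It showed the same order of tissue over organoid, with differences from crypt of -2.83 in the y-organoid and -3.64 in the o-organoid. With normexp background correction these came to -1.15 and -1.94, both under 4-fold. Defa-rs2 had signals of 8.11 in intestine, 8.45 in crypt, 5.18 in y-organoid and 7.32 in o-organoid on its brighter probe. Its other probe was close to background, at intensities of 19.2 in intestine, 29.4 in crypt and 14.1 and 14.3 in the 2 organoids, where it was not well above background. Defa-rs2 was 4-fold or more below crypt in the y-organoid alone, where the mean over its 2 probes gave a difference of -1.80, under 4-fold.

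Of the pseudogene names, Defa-ps1 carried signal, at 7.05 in intestine, 7.68 in crypt, 4.09 in y-organoid and 6.26 in o-organoid. It was thus low in the y-organoid, with a difference of -3.59 from crypt, while the o-organoid was within 4-fold of crypt. The probes of Defa4, Defa10, Defa-rs4, Defa-ps12 and Defa-ps13 were not well above background on any array. Defa4, the gene of cryptdin 4, had processed intensities of 3.60 in intestine, 4.45 in crypt, 3.19 in y-organoid and 4.24 in o-organoid. The Defa4 probe has no listed position and matched no RefSeq name. Whether these mice carry that copy was not tested. The highest intensity among the 5 was 12.7, that of Defa-rs4 on the crypt array, where the lowest intensity above background was 20.4. The Defa-ps12 and Defa-ps13 probes lie apart from the others on the chromosome, within chr8:19212701-19304794 in mm9.

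Crypt and whole intestine were compared to see the family in isolated crypts against tissue with villi and muscle. None of the 13 alpha-defensins reached 4-fold in either direction, while 0.309% of all genes above background on both arrays were higher and 3.04% lower. The median difference was 0.64, beside 0.06 for all genes. The 3 largest differences upward were 1.26 for Defa21, 1.24 for Defa-rs12 and 1.16 for Defa-rs10. Those of Defa25 and Defa-rs7 were both 1.02, so that 5 members passed 2-fold. Defa1, Defa3 and Defa23 had differences of -0.26 to -0.14, and each changed sign in 2 of 6 alternative settings, the deposited scaling being one of them. That scaling moves the median of all genes in this comparison from 0.06 to 0.80, and with it Defa21 reached 2.01.

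The intestine array also held markers that were low or at background in crypt. All 4 smooth muscle genes (Acta2, Actg2, Myh11, Des) were above background in intestine, at 0.47 to 4.26, and none in crypt. The 4 pancreatic enzyme genes (Cel, Cpa1, Ctrb1, Prss2) stood at 9.67 to 10.21 in intestine and at -4.73 to -2.34 in crypt. Of 8 immune markers, with Jchain not matched, 8 were above background in intestine and 5 in crypt, and Ptprc, Cd79a and S100a9 were lower in crypt by 4-fold or more or by such a bound, as were 7.36% of all genes above background on either array. Their part in the defensin differences was not tested.

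The o-organoid was compared with crypt in the same way. Here 5 of 13 alpha-defensins were 4-fold or more lower and 0 higher, while 3.77% of all genes above background on both arrays were lower and 1.52% higher. Among them were Defa-rs10, Defa-rs7, Defa-rs12 and Defa25, with differences of -6.00 to -3.14. The median over the alpha-defensins was -1.42, beside 0.00 over all genes. By group, 4 of 5 cryptdin-related sequences and 1 of 7 cryptdins were lower, with medians of -3.64 and -0.72. In the y-organoid the same counts were 5 of 5 and 4 of 7, with medians of -3.56 and -2.66. Both organoids were set against the same crypt array, so the 2 comparisons share its error.

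**Figure D2:**
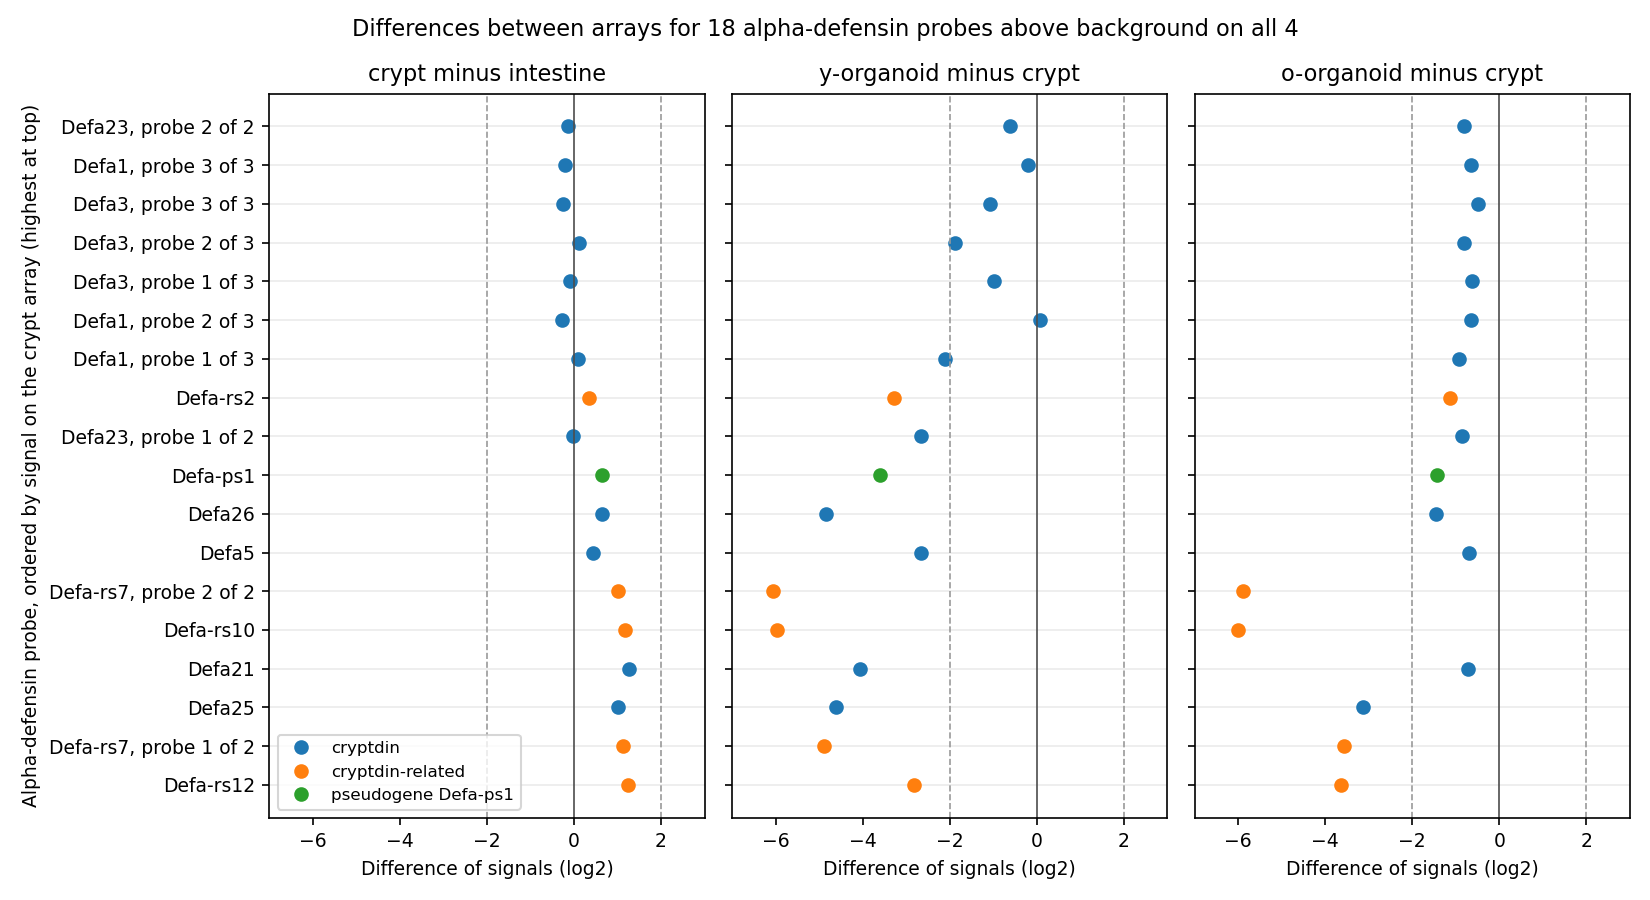
Differences of signal in log2 units (horizontal axes) for 18 of the 19 alpha-defensin probes above background on all 4 arrays, 1 being left out (vertical axis, ordered by crypt signal, probes of a gene numbered by rising crypt signal), for crypt minus intestine, y-organoid minus crypt and o-organoid minus crypt, with dashed lines at 4-fold and colours for cryptdins, cryptdin-related sequences and the pseudogene. Crypt minus intestine stays between -0.27 and 1.26, with small negative values that change sign under the deposited scaling, while y-organoid minus crypt reaches -6.06 and o-organoid minus crypt reaches -6.00.

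The organoids were also compared directly. In the o-organoid 4 of 13 alpha-defensins were 4-fold or more higher than in the y-organoid and 0 lower, while 0.874% of all genes were higher and 2.49% lower. The 4 were Defa26 (10.5-fold), Defa21 (10.2-fold), Defa-ps1 (4.51-fold) and Defa-rs2 (4.41-fold). The median difference was 1.23, beside -0.15 over all genes. Defa-rs2 came to 0.48 with the mean over its 2 probes. Defa-rs12, Defa1 and Defa23 had the lowest differences, at -0.81, -0.45 and -0.21. Those of Defa1 and Defa23 changed sign in 3 of 6 alternative settings and that of Defa-rs10 in 1 of 6.

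Probes of the same gene name did not always give the same difference. For Defa1, y-organoid minus crypt was -2.11 on probe 1 of 3, the one printed above, 0.07 on probe 2 and -0.20 on probe 3. For Defa23 the same difference was -2.65 on the dimmer probe and -0.60 on the brighter, and o-organoid minus y-organoid was 1.81 and -0.21. For Defa-rs7, o-organoid minus crypt was -5.89 on the brighter probe and -3.56 on the dimmer. These disagreements pass 4-fold between the highest and the lowest probe. They touch the y-organoid count for Defa1 and Defa23, both read by the brighter probe, which was within 4-fold of crypt. For the 3 probes of Defa3 the y-organoid difference ran from -1.89 to -0.98.

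By their median, differences of the members were smallest on the brightest probes. The 10 probes with crypt intensities of 159800 to 431000 had a median y-organoid minus crypt difference of -1.48, the highest being 0.07. Some of these bright probes still passed 4-fold, with -3.27 on the brighter Defa-rs2 probe. The 7 probes with crypt intensities of 20670 to 97110 had a median of -4.60, with a range of -6.06 to -2.66. The other 2, the dimmer Defa-rs7 probe and the Defa-rs12 probe at 1384 and 249, had -4.88 and -2.83. For o-organoid minus crypt these medians were -0.81 and -1.46, and for crypt minus intestine -0.11 and 1.02. The probes share the arrays and, in many pairs, their sequence, and the crypt signal enters both quantities. The part of compression at high intensity in these differences was not tested.

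The name rule leaves out further alpha-defensins that the files list under other names. Through their accessions, 9 more probes belong to Defa27, Defa32, Defa37, Defa38, Defa39, Defa40 and Defa42 in the RefSeq table. All 9 were well above background on the 4 arrays. In the y-organoid 7 of the 9 were 4-fold or more below crypt, against 3.63% of all probes, with a range of -5.56 to -1.31. Defa39, listed as AY761184, had signals of 8.20 in intestine, 8.57 in crypt, 3.01 in y-organoid and 4.85 in o-organoid, the lowest organoid signals of the 9. In the o-organoid 4 of the 9 were 4-fold or more below crypt, against 3.21% of all probes: those of Defa38 and Defa39 and both of Defa42. The probes of Defa38, Defa39 and Defa42 had crypt intensities of 179200 to 403000, within the brightest band above, and y-organoid differences of -5.56 to -3.77. The other probes, at 31750 to 255300, had differences of -2.70 to -1.31. The 9 probes, which did not enter the counts above, thus gave both small and large differences, as the members did.

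Genes linked to Paneth granules and prodefensin processing were taken from a list. It is not limited to granule content and holds an alpha-defensin, Gm14851 (Defa38), and the stress-response gene Nupr1. Of 21 listed names, 17 matched an array name, and Ang5, Itlna, Mptx1 and Mptx2 did not. In the y-organoid 9 of the 17 were 4-fold or more below crypt, 1 was below by a bound past 4-fold and 1 was higher, with a median of -2.11. Over all gene names above background on either array, 4.26% were below crypt by 4-fold or by such a bound. Mmp7, which cuts prodefensins, had signals of 3.12 in intestine, 3.8 in crypt, -0.33 in y-organoid and 2.78 in o-organoid. Its difference was -4.13 for y-organoid minus crypt and 3.12 for o-organoid minus y-organoid. Lyz1, the Paneth cell lysozyme, had signals of 7.38 in intestine, 8.02 in crypt, 5.90 in y-organoid and 6.98 in o-organoid. Ang4, a granule ribonuclease, had signals of 4.05 in intestine, 5.0 in crypt, 3.61 in y-organoid and 3.46 in o-organoid. All 3 were highest in crypt. Mmp7 and Lyz1 were 4-fold or more below crypt in the y-organoid, and Ang4 was within 4-fold of crypt in both organoids.

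The other members below crypt in the y-organoid were the lectins Reg3b, Reg3a, Reg3g and Itln1, colipase (Clps), the gut hormone uroguanylin (Guca2b), Gm14851, which is Defa38, and Lyz2 by a bound. Reg3b, Reg3a, Reg3g, Guca2b, Gm14851 and Lyz2 were 4-fold or more below crypt in the o-organoid as well. These were 6 of 17, with a median of -1.02 over the 17, beside 3.77% of all genes above background on both arrays. Reg3b had the largest differences of the list, at -9.27 in the y-organoid and -7.99 in the o-organoid. Nupr1, a stress-response gene, went the other way in both organoids, with differences of 4.82 and 3.04. In crypt against intestine, 3 of 17 were lower, namely Nupr1, Clps and Pnliprp2, beside 3.04% of all genes. Clps and Pnliprp2 are also known as pancreatic genes. In the o-organoid against the y-organoid, Mmp7 and Clps were higher, as were 0.874% of all genes.

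**Figure D3:**
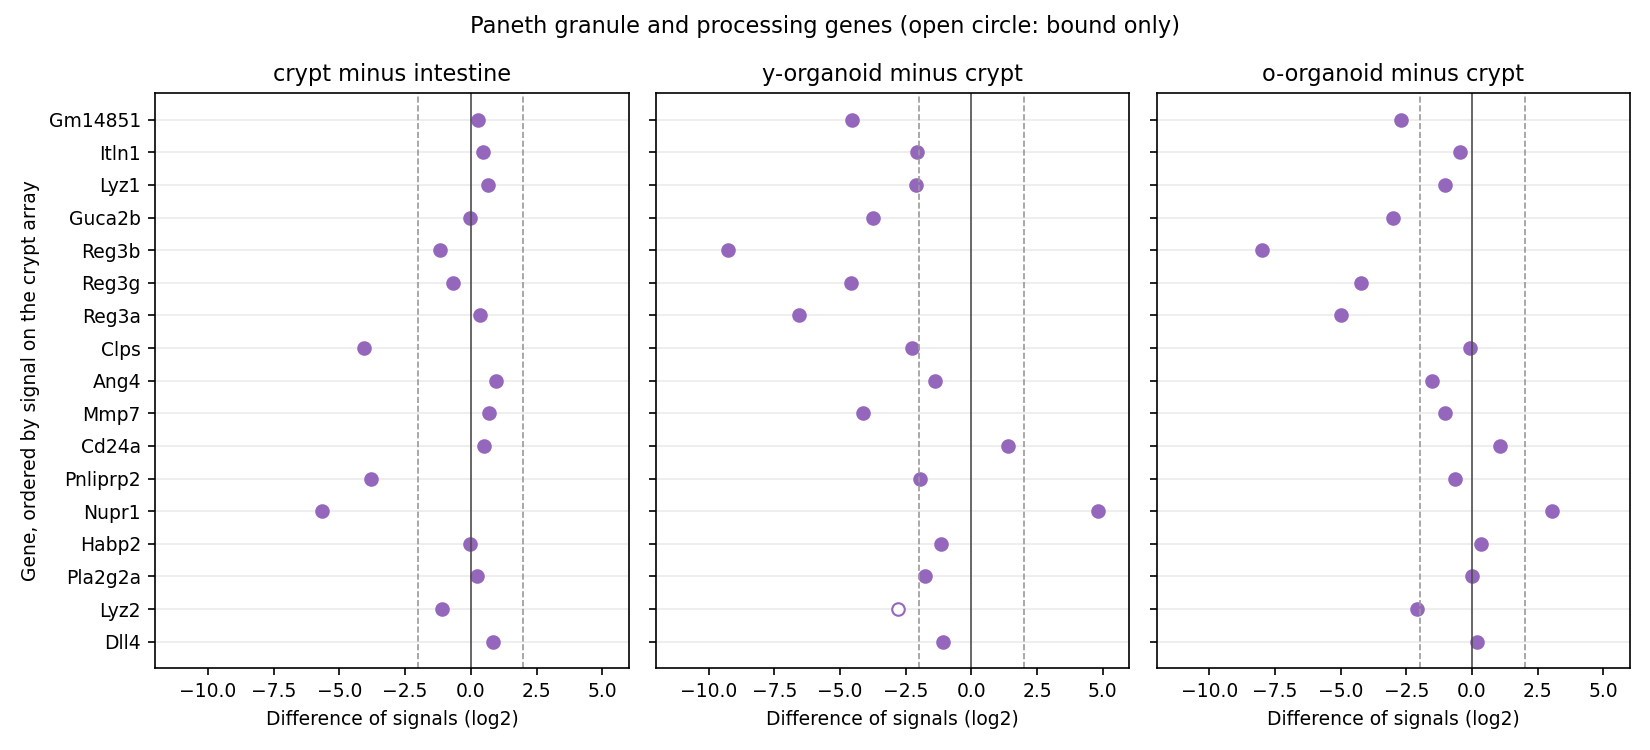
Differences of signal in log2 units (horizontal axes) for the 17 genes on the arrays from the Paneth granule and prodefensin processing list, which includes the alpha-defensin Gm14851 (vertical axis, ordered by crypt signal). Panels show crypt minus intestine, y-organoid minus crypt and o-organoid minus crypt, with dashed lines at 4-fold and an open circle where only a bound was measured. Reg3b lies at -9.27 and Mmp7 at -4.13 in the y-organoid comparison, and Nupr1 lies above 4-fold in both organoid comparisons.

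Genes that specify Paneth cells were taken from a list. Of 15 such genes, 1 was 4-fold or more below crypt in the y-organoid, namely Agr2, a chaperone of secretory cells, at -2.70, beside 3.97% of all genes. None was so in the o-organoid or in crypt against intestine. Sox9, a transcription factor needed for Paneth cells, had signals of -1.84 in intestine, -0.74 in crypt, 0.40 in y-organoid and 0.62 in o-organoid. Atoh1, which directs the secretory fate, had signals of -0.76 in intestine, -0.07 in crypt, -1.32 in y-organoid and -0.17 in o-organoid. Both stayed within 4-fold of crypt in both organoids. Wnt3, the Paneth cell Wnt ligand, was above background in the o-organoid alone, at least 4-fold over the y-organoid, as were 0.907% of all genes by a difference or a bound.

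Markers of other epithelial cells were read beside the defensins. All 5 enterocyte genes (Alpi, Lct, Sis, Fabp1, Apoa4) were 4-fold or more below crypt in the y-organoid and 4 of 5 in the o-organoid, Alpi being the exception, beside 3.97% and 3.77% of all genes. The log2 of their summed signals was 9.79 in intestine, 9.63 in crypt, 5.66 in y-organoid and 6.79 in o-organoid. Of 4 goblet cell genes, with Muc2 not matched to an array name, Fcgbp and Zg16 were 4-fold or more below crypt in the y-organoid. Zg16 was so in the o-organoid as well. The summed signals of the goblet cell genes were 10.52, 9.99, 8.27 and 8.01 in the same order. Of 4 stem cell genes, Lgr5 was 4-fold or more above crypt in both organoids, beside 4.03% and 1.52% of all genes higher. Their summed signals were 3.50, 4.74, 6.40 and 6.05. Of 9 general epithelial genes, all were above background on the 4 arrays, and Vil1 and Krt20 were 4-fold or more below crypt in both organoids. The part of a changed mix of epithelial cells in the defensin differences was not tested. Alpha-defensins are also known from neutrophils in other species. Of 5 neutrophil granule genes, Mpo and Ngp were at background on every array, and the others stayed below 0 on all of them.

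In the promoter table of build GRCm38.p6, 2 of 18 alpha-defensin names, Defa21 and Defa23, and 30 of 44 beta-defensin names were matched. Matching to RefSeq by accession took in more alpha-defensin names than these 2. The 250 bases before the start are shown for Defa21 and Defa23, which belong to one cluster. For y-organoid minus crypt, Defa21 gave -4.07. Defa23 gave -0.60 on its brighter probe and -2.65 on its dimmer probe, so the contrast of the 2 genes depends on the probe. Capitals mark ATCAAAG, the reverse complement of CTTTGAT, a motif of TCF/LEF factors that act in Wnt signalling. The Defa21 stretch lies at chr8:21025295-21025544 and that of Defa23 at chr8:21054790-21055039, both on the plus strand.
Defa21 promoter: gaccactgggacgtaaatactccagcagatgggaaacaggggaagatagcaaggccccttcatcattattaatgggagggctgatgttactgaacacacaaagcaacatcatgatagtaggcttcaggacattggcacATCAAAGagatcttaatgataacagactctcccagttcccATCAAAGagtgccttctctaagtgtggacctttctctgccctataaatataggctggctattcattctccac
Defa23 promoter: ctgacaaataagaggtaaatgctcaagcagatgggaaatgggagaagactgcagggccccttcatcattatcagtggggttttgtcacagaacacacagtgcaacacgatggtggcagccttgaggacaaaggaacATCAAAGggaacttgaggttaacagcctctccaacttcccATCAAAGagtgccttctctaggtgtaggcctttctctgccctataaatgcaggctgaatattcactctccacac
The 2 sequences are 78.3% identical, and each holds the motif 2 times, at -112 and -72 from the start in Defa21 and at -114 and -74 in Defa23.

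Motifs were searched on both strands from 250 bases before to 50 after the start. CTTTGAT was in 13 of 16 Defa promoters of the table (81.2%), in 0 of 30 beta-defensin promoters and in 3.7% of all 32851 promoters. CTTTGAA, the other TCF/LEF form searched, was in 0 of 16 Defa promoters, 3 of 30 beta-defensin promoters and 5.1% of all. TGACTCA, the AP-1 motif, was in 3 of 16, 1 of 30 and 5.2%. TTTATNN, a Cdx-type motif that can overlap a TATA box, was in 15 of 16, 20 of 30 and 39.9%. The Defa promoters are related copies and are not independent, and a match describes these letters only.

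The beta-defensins gave little signal in any sample. Their 44 names lie mainly on chromosome 8 (23 names), chromosome 2 (11), chromosome 14 (5) and chromosome 1 (3), with 2 on an unplaced part of chromosome 8. The 46 probes that were dim on all arrays had median processed intensities of 4.14 in intestine, 5.32 in crypt, 3.82 in y-organoid and 5.06 in o-organoid. Among them are Defb1, the common epithelial beta-defensin, and Defb2, Defb3, Defb4 and Defb14. The lowest intensity above background on an array was 17.3 for intestine, 20.4 for crypt, 12.7 for y-organoid and 20.0 for o-organoid, and lower levels were not detectable here.

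**Figure D4:**
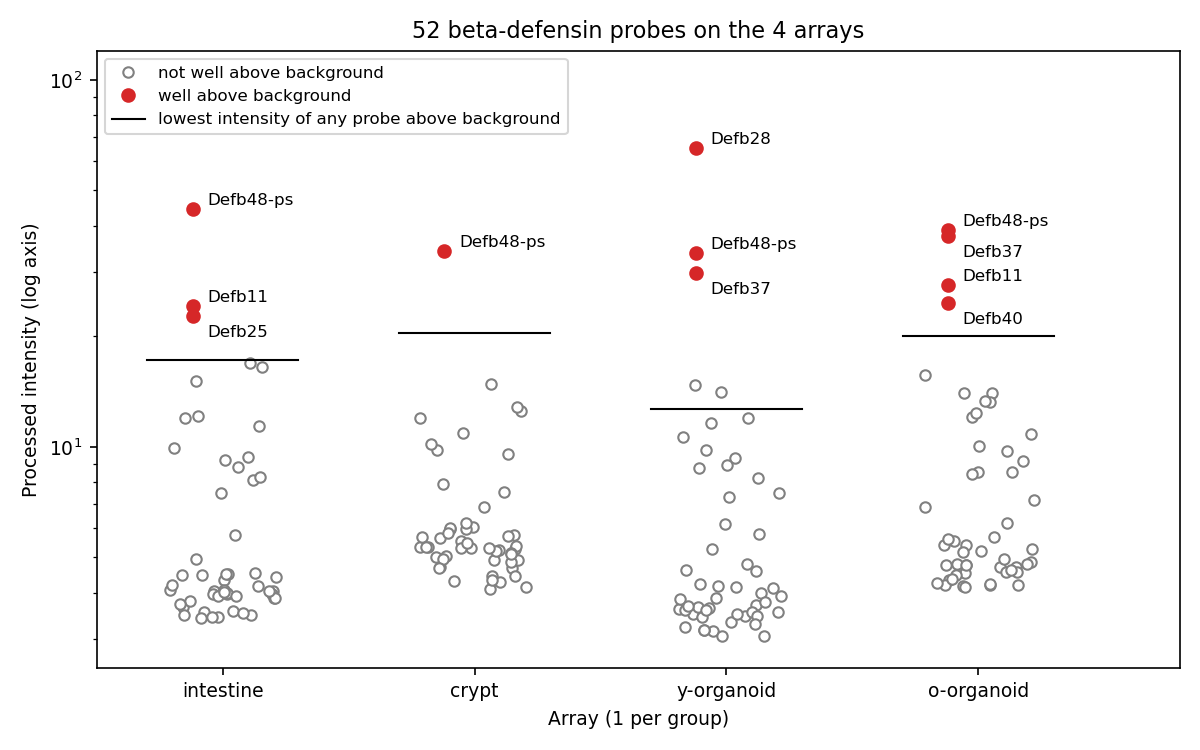
Processed intensity on a log axis (vertical) of the 52 beta-defensin probes on each array (horizontal axis, 1 array per group, points spread sideways for legibility), with filled points for probes well above background, open points for the others and a line at the lowest intensity of any probe above background. Filled points number 3 in intestine, 1 in crypt, 3 in y-organoid and 4 in o-organoid, and the highest is Defb28 in the y-organoid at 65.3.

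Of the 6 beta-defensins above background on some array, 1 was measured on all 4. Defb48-ps, a pseudogene name, had processed intensities of 44.5 in intestine, 34.1 in crypt, 33.8 in y-organoid and 39.0 in o-organoid. Its scaled differences were -0.67 for crypt minus intestine, 0.73 for y-organoid minus crypt, -0.26 for o-organoid minus crypt and -0.98 for o-organoid minus y-organoid, all within 4-fold. Defb11 was above background in intestine and o-organoid, with intensities of 24.2 in intestine, 14.8 in crypt, 12 in y-organoid and 27.6 in o-organoid. Defb25 was above background in intestine alone, with 22.7 there and 5.96 in crypt, 5.28 in y-organoid and 8.52 in o-organoid. These 3 readings lay close to the detection limit, and the bounds on crypt minus intestine were -0.54 for Defb11 and -0.44 for Defb25.

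Defb37 and Defb40, whose probes lie close together on chromosome 8, were above background in organoid only. Defb37 had intensities of 4.05 in intestine, 9.82 in crypt, 29.8 in y-organoid and 37.4 in o-organoid. Scaled to each array, the bounds over crypt were 1.29 for the y-organoid and 0.43 for the o-organoid, both under 4-fold, and o-organoid minus y-organoid was -0.86. Defb40 had intensities of 3.93 in intestine, 5.19 in crypt, 14.7 in y-organoid and 24.6 in o-organoid, and it was well above background in the o-organoid alone. Its bounds in the o-organoid comparisons were 0.00, so no difference was measured. The Defb37 probe lies at chr8:18986270-18986329 and the Defb40 probe at chr8:18974949-18975008, both on the minus strand of mm9.

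Defb28 was the single beta-defensin past 4-fold, and that by a bound. One of its 2 probes had intensities of 4.41 in intestine, 5.69 in crypt, 65.3 in y-organoid and 5.53 in o-organoid, and its other probe was dim on all arrays. The y-organoid was at least 2.42 log2 units above crypt, and o-organoid minus y-organoid was -2.90 or lower. Over all gene names above background on either array, 4.85% were above crypt and 3.03% below the y-organoid by 4-fold or by such a bound. The y-organoid difference from crypt passed 4-fold in 3 of 6 alternative settings. It was 1.2 with normexp background correction, 1.67 with the mean over both probes and 1.91 with the deposited scaling, all under 4-fold, and 2.01 with quantile normalization. The probe is shown because its runs of alternating bases, GAGAGA in capitals, recur in some probes that were high on the same array.
Defb28 probe: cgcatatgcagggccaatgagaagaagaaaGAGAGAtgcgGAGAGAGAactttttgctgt
It lies at chr2:152345796-152345855 on the plus strand of mm9.

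Among all probes, 1058 (2.68%) hold GAGAGA. In y-organoid minus crypt, 14.1% of those above background on either array were higher by 4-fold or by a bound past 4-fold. For probes without the run this share was 4.65%. The medians, which include bounds, were 0.61 with the run and 0.18 without it. For the 35 probes with the longer run GAGAGAGAGA the share and the median were 71.4% and 4.09, and in o-organoid minus crypt 0% and -0.97. The Defb28 probe does not hold this longer run and is not among the 35. The part of the run in the Defb28 signal was not tested. The run is in 4 of 77 defensin probes, the others being the dimmer Defa23 probe, with -2.65 for y-organoid minus crypt, and the Defb35 and Defb46 probes, which were dim on every array.

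Genes that induce or receive beta-defensins were taken from a list of 14. Above background were 10 in intestine, 7 in crypt, 3 in y-organoid and 6 in o-organoid. Il22ra1, the epithelial receptor subunit for interleukin 22, had signals of 0.08 in intestine, -0.10 in crypt, -3.53 in y-organoid and -1.42 in o-organoid, which put the y-organoid 4-fold or more below the other 3. Ccr6, a receptor for beta-defensins on immune cells, and the cytokine gene Il1b were above background in intestine alone. They were below it in crypt by bounds of -3.50 and -2.97. The NF-kappa-B subunit gene Rela was near level, at 3.29 in intestine, 3.23 in crypt, 3.35 in y-organoid and 3.17 in o-organoid.

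Of 8 epididymis and testis genes, which mark tissues rich in beta-defensins, 7 were at background on every array. Rnase10 was measured on all 4, with signals of -2.41 in intestine, -3.27 in crypt, -1.16 in y-organoid and -2.06 in o-organoid. It was 4-fold or more above crypt in the y-organoid, as were 4.03% of all genes. Of 6 squamous epithelium genes, none differed by 4-fold in any comparison, and Krt4 and Ivl were at background throughout.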

How the data were processed

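RNA of 4 samples was hybridised to 1 Agilent array each, in 1 colour. The authors deposited scanner files with the intensity of each spot. Per the file headers, it came from Agilent Feature Extraction 10.7.3.1 (background subtraction and detrending), and probe positions are those of mm9. They also deposited a value table, a ratio of the processed intensity to 1 constant per array (40.5 for intestine, 29.5 for crypt, 25.2 for y-organoid, 36.9 for o-organoid). It is linear, has a median of 1.0 per array and its genes are not centred. The program behind it was one not given in the sources used here.

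Control spots and outlier spots were left out, each array's 75th percentile was subtracted on the log2 scale, and spots of a probe were averaged. A gene, by its name in the files, took the values of its brightest probe by mean over the arrays. Names were checked against RefSeq (GRCm38.p6, names only): 13 of 25 alpha-defensin and 48 of 52 beta-defensin probes matched by accession. Precision is limited by the number of arrays, and no test was possible. The counting script was tested on simulated data. Scripts used Python 3.11.15, pandas 2.3.3 and limma 3.58.1.

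Defensins above background on some array are named, as are the 3 largest differences per direction, probes of a gene that disagree by 4-fold, list members at 4-fold or more, and Lyz1, Mmp7 and Ang4. Sox9, Atoh1 and Rela, as well as Defa39 and the dim Defb1, Defb2, Defb3, Defb4, Defb14, Defb35 and Defb46, were named in addition, after their values were seen. The members and lists were chosen with earlier results of these data known. Alternatives were the deposited scaling, quantile normalization, normexp (offset 50), outlier spots kept, no filter on dim probes, the mean over probes, a 2-fold limit and another detection flag. Some items taken in by these rules are not reported here, although they remain in the counts and medians.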

Additional observations from a re-analysis of the deposited data

Results flagged for a closer look

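A pair of probes had opposite signs in the y-organoid and the o-organoid, each against crypt. On probe 2 of 3 of Defa1 the difference was 0.074 in the y-organoid and -0.64 in the o-organoid. On the Defb48-ps probe it was 0.73 in the y-organoid and -0.26 in the o-organoid. With 1 array per group the difference between the organoids was not tested, and both comparisons share the crypt array. The first of the 4 values is below the technical SD of 0.10. The Defb48-ps signals lay below -2, where the median SD between spots was 0.15 in crypt, 0.19 in y-organoid and 0.13 in o-organoid. Its value of -0.26 is thus not far above the spotting error.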

How the results depend on the processing

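The alpha-defensin medians kept their sign in the 4 comparisons under each alternative run, and the count of 10 defensins past 4-fold in the y-organoid against crypt ran from 9 to 14. The beta-defensin median of crypt minus intestine, -0.54 from 3 genes, was 0.0 or above under the deposited scaling, quantile normalization and no filter. The deposited scaling gave alpha-defensin medians of 1.39 (crypt minus intestine), -4.07 (y-organoid minus crypt), -1.30 (o-organoid minus crypt) and 1.87 (o-organoid minus y-organoid), beta-defensin medians of 0.0, 0.77 and -0.22 (first, second and last), and 1 call in crypt against intestine. It moved the median of all genes to 0.80, -0.35, 0.09 and 0.43, and the split of higher and lower genes from 47 and 463 to 563 and 289, from 598 and 590 to 292 and 1060, and from 136 and 387 to 558 and 125 (first, second and last). Quantile normalization gave alpha medians of -1.52 and 1.43 (last 2 comparisons), beta medians of 0.0, 0.81 and -0.26, and splits of 150 and 402 (first) and 170 and 286 (last). Normexp gave an alpha median of 1.37 (last), beta medians of -0.37 and 0.83 (first 2), and splits of 259 and 445 (second) and 74 and 124 (last). With no filter on dim probes, which adds dim genes, alpha medians were 0.39, -2.75, -0.81 and 0.074, beta medians 0.076, 0.27 and -0.51 (first 3), and 2 genes were called in crypt against intestine. The mean over probes gave an alpha median of 0.80 (last) and beta medians of -1.0, 1.67 and 0.82 (first 3). At 2-fold, 5, 8 and 7 genes were called in the first and the last 2 comparisons. Counting probes gave 20 alpha-defensins in intestine and in crypt, and the other flag gave 15, 16, 20 and 18 beta-defensins in intestine, crypt, y-organoid and o-organoid. The cause was not tested. Of 67 values of single genes, none moved with outlier spots kept, 9 with no filter, 22 with the mean over probes, 26 with normexp, 42 with quantile normalization and 66 with the deposited scaling. No paired analysis was possible because each group has 1 array and no replicate number.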
